A study of Mus musculus with 12 samples.

Results

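The replication-dependent histone genes of the mouse were followed here in RNA and ribosome footprints of postnatal testes. They were taken as every gene row of the deposited count table whose symbol begins with Hist1h, Hist2h, Hist3h or Hist4h, which gave 68 of 20620 genes. Of these, 3 are germ cell variants (*Hist1h1t*, *Hist1h2ba* and *Hist1h2aa*) and 65 are the other members. By class, 6 belong to H1, 18 to H2A, 19 to H2B, 12 to H3 and 13 to H4. The 19 of H2B include *Hist3h2bb-ps*, a processed pseudogene. All 12 libraries came from whole testes of C57BL/6 mice at postnatal day 16. The mice were either *Mael*+/- (1 working copy of *Maelstrom*, the control) or *Mael*-/- (no working copy, which impairs the making of piRNAs, small RNAs with which germ cells keep transposons silent). Extracts were prepared with cycloheximide, which holds ribosomes on mRNA. Part of each extract gave ribosomal RNA-depleted total RNA and the rest gave footprints, the fragments that ribosomes protected from micrococcal nuclease. The 4 groups of genotype and assay held 3 libraries each, and none of the labels names the litter or the number of mice behind an extract. p-values therefore measure the spread between these extracts.

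Replication-dependent histone genes are compact genes without introns that lie together in clusters, and their mRNAs are made chiefly in S phase to package newly copied DNA. Their mature mRNA ends in a conserved stem-loop in place of a poly(A) tail. The stem-loop is bound by the protein SLBP, which serves in processing, export, translation and decay of the mRNA. Libraries made from poly(A)-selected RNA miss most of these mRNAs, whereas rRNA-depleted total RNA, as used here, retains them. H2A, H2B, H3 and H4 form the core of the nucleosome, and the linker histone H1 binds where DNA enters and leaves it. In the testis, *Hist1h1t* encodes the linker variant H1t of spermatocytes, and *Hist1h2aa* and *Hist1h2ba* encode the testis variants TH2A and TH2B, which replace part of the canonical H2A and H2B in germ cells.

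The stem-loop is shown here because most of the family has it and because its letters set H4 apart from the other classes. It was searched in the mm10 genome within 150 bases after each stop codon, as a stem of 6 bases that starts with G G, a loop of 4 bases and the reverse complement of the stem. Of the 67 members with an annotated coding sequence, 65 had it, and *Hist1h2an* and *Hist2h2be* did not. The same search found a match in 87 of 19467 other protein-coding genes (0.447%). The 65 sequences took 8 forms. The commonest form was carried by 41 members and the next by 9, among them *Hist1h1t* and *Hist1h2ba*. The other main forms belonged to H4 genes, with 8, 2 and 2 members. In the lines that follow, capitals mark the stem:
Hist1h2aa, chr13:23934891-23934906, plus strand, the form of 41 members: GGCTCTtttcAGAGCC
Hist1h2ba, chr13:23933730-23933745, minus strand, the form of 9 members: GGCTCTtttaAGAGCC
Hist1h4c, chr13:23698089-23698104, minus strand, the form of 8 H4 members: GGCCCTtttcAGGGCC
Hist1h4i, chr13:22040966-22040981, minus strand, shared with Hist2h4: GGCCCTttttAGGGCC
Hist1h4j, chr13:21735437-21735452, plus strand, shared with Hist1h4b: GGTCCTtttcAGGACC

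All 13 H4 genes had a stem that no other class had, whereas the forms of *Hist1h2aa* and *Hist1h2ba* share their stem and differ in the loop. The 3 germ cell variants thus have the stem-loop of the family. *Hist1h2aa* and *Hist1h2ba* lie head to head on chromosome 13, with 305 bases between their coding starts. In the promoter table of RefSeq for GRCm38, which holds windows of 300 bases, 61 member genes had 62 windows. CCAAT, read on both strands, was in 53 of these (85.5%, against 37.4% of all 32851 windows), and TATAAA was in 35 (56.5%, against 13.6%). The motifs are letter matches and their use was not tested. The 54 Hist1 genes lie on chromosome 13, the 10 Hist2 genes on chromosome 3, the 3 Hist3 genes on chromosome 11 and *Hist4h4* on chromosome 6. *Hist3h2bb-ps* is annotated as a processed pseudogene and has no coding sequence.

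Near-identical copies can limit which members are measured. The paper and the labels do not say how reads with several genomic matches were counted in these libraries, so each coding sequence was cut into all of its windows of 30 bases, about the length of a footprint, and the windows found once in the genome were counted. *Hist1h1t* was unique in 100% of windows, *Hist1h2aa* in 87.8% and *Hist1h2ba* in 55.5%. The median was 83.0% for H1, 21.6% for H4, 13.5% for H2B, 11.1% for H2A and 9.29% for H3. Altogether 45 members were under 25% unique, and 14 were at 50% or more. Among pairs with equal coding length, the median nucleotide identity of the coding sequences was 97.2% for both H2B and H3, 96.4% for H2A and 93.9% for H4.

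The first 30 coding bases of 6 H4 genes show how far copies can be told apart. Capitals mark the bases that differ from the commonest base among the 13 H4 genes:
Hist1h4c, chr13:23698420-23698449, minus strand, found once in the genome: atgtctggAcgtggTaagggTggTaaaggc
Hist1h4d, chr13:23581602-23581631, plus strand, found once: atgtctggAcgCggGaaAggCggCaaGggT
Hist4h4, chr6:136804350-136804379, minus strand, found once: atgtcAggAcgAggAaaAggCggCaaGggT
Hist1h4i, chr13:22041294-22041323, minus strand, found 3 times: atgtctggtcgtggcaaAggaggaaaaggc
Hist1h4m, chr13:21811784-21811813, plus strand, found 3 times: atgtctggtcgtggcaaAggaggaaaaggc
Hist1h4n, chr13:21832129-21832158, minus strand, found 3 times: atgtctggtcgtggcaaAggaggaaaaggc

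The 9 members that had no count in any library were *Hist1h2ao*, *Hist1h2ap*, *Hist1h2bq*, *Hist1h2br*, *Hist1h4m*, *Hist2h2aa1*, *Hist2h2aa2*, *Hist2h3c1* and *Hist2h3c2*. Each of them has a coding sequence identical to that of another member, and none has a unique window of 30 bases within it. A count of 0 here allowed up to 0.109 to 0.394 counts per 1000000 gene counts, depending on the library and before any scaling between libraries. This holds for counting error only and for reads that could be placed. Levels given below are counts per 1000000 gene counts after scaling between libraries (CPM). A count of 0 does not bound the level of an mRNA whose reads match a twin equally well. *Hist1h4n*, the copy of *Hist1h4m*, was the only member with an identical twin that had counts. Unique windows of 30 bases that reach outside the coding sequence numbered 27 for *Hist1h4m* and 18 for *Hist1h4n*. Unique windows of 75 bases in the mRNA numbered 36 and 32, and *Hist2h2aa1* and *Hist2h2aa2* had 20 and 60. Unique sequence thus did not by itself mark the members without counts, and the reason was not tested. The 59 members with counts all passed the filter on low counts in each of the 5 tests.

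Gene counts came to 13697267 to 27462358 per RNA library and 7609932 to 13233565 per footprint library. *Mael* was at 174 ± 39.9 CPM (SD, n = 3) in *Mael*+/- RNA and at 0.0572 ± 0.0513 in *Mael*-/- RNA. The *Mael*+/- extract 1 stood apart. Genes of pachytene spermatocytes summed to 323 to 932 CPM in *Mael*+/- RNA, with extract 1 highest, and to 260 to 299 CPM in *Mael*-/- RNA, and the 9 of 12 tested were all lower in *Mael*-/- (median log2 difference −1.54, none called). Early meiotic genes summed to 1415 to 3189 CPM against 1325 to 1832 CPM (5 of 13 higher), spermatogonial genes to 1184 to 1408 against 1147 to 1241 CPM (2 of 12 higher), Sertoli genes to 7314 to 8311 against 7589 to 8263 CPM (5 of 10 higher) and Leydig genes to 322 to 530 against 265 to 520 CPM (2 of 6 higher). Of the red blood cell genes, *Hba-a1* and *Hbb-bs* were listed at 0 and the list summed to 4.66 to 11.1 CPM against 5.79 to 8.66 CPM. None of these genes was called in RNA or footprints. In whole testes, fewer cells of a type and less RNA per cell cannot be told apart.

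Histone mRNAs made up a measurable part of both the transcriptome and the ribosome load. In RNA libraries the 68 members made up 1.06% to 1.44% of all counts assigned to genes, and in footprint libraries 1.31% to 1.67%. Counts of the Hist1 cluster were 86.9% to 89.0% of the members' CPM in RNA libraries. Per kilobase of mRNA, the linker histone gene *Hist1h1a* had the highest mean RNA level as counted, 3073 CPM per kb (lowest to highest of 6 libraries, 2649 to 3371). *Hist1h2ba* followed at 2948 (2236 to 4330.5), *Hist1h4c* at 2331 (1834 to 2960.1), *Hist3h2a* at 1566 (1406 to 1701) and *Hist1h2aa* at 1471 (1057 to 1838). Neighbours in this order overlapped, except that every library of *Hist1h4c* lay above every library of *Hist3h2a*.

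Per kilobase of coding sequence, the order of footprint levels was led by a germ cell variant. *Hist1h2ba* had 6844 CPM per kb (5006 to 12037), and its lowest library lay above the highest library of every other member, with or without *Mael*+/- extract 1. *Hist1h1a* was next at 4077 (3746 to 4471), then *Hist1h4c* at 3830.3 (3156 to 4755) and *Hist3h2a* at 2899 (2652 to 3083). *Hist1h2aa* stood seventh at 1236 (976 to 1513). *Hist1h1t*, at 232 CPM per kb (175 to 447), was 26th of 58 in footprints and 34th of 59 in RNA. Divided by unique 75-base windows of the mRNA in place of its length, RNA of *Hist1h2ba* (5034 CPM per kb) and *Hist1h4c* (4995) lay above that of *Hist1h1a* (3412), so first place in RNA turned on the divisor. In footprints *Hist1h2ba* stayed first when divided by unique windows (13340 CPM per kb, with *Hist1h4c* at 11274). The levels before these are as counted: *Hist1h1a* and *Hist1h1t* are almost wholly unique in sequence, and *Hist1h4c*, at 37.5% unique, is not.

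The germ cell variants varied widely between extracts, with their highest footprint values in a control extract. *Hist1h2ba* RNA was at 1871, 966 and 968 CPM in *Mael*+/- and at 1201, 1442 and 1193 CPM in *Mael*-/-. Its footprints were at 4622, 2011 and 1922 CPM in *Mael*+/- and at 2358, 2752 and 2102 CPM in *Mael*-/-. In both assays *Mael*+/- extract 1 was the highest of all libraries, the other *Mael*+/- extracts were the lowest, and *Mael*-/- lay between them. *Hist1h1t* RNA was at 143, 59.1 and 55.3 CPM in *Mael*+/- and at 67.4, 84.7 and 68.4 CPM in *Mael*-/-, with footprints at 282, 119.6 and 111.5 CPM and at 120.0, 135 and 110.4 CPM. Extract 1 again stood above the rest, which overlapped between genotypes in footprints. *Hist1h2aa* RNA was at 829, 563 and 504 CPM in *Mael*+/- and at 728, 877 and 709.5 CPM in *Mael*-/-, with footprints at 590.1, 395 and 381 CPM and at 555, 553 and 418 CPM. For this H2A variant extract 1 was less extreme, and 1 *Mael*-/- RNA library was higher.

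**Figure D1:**
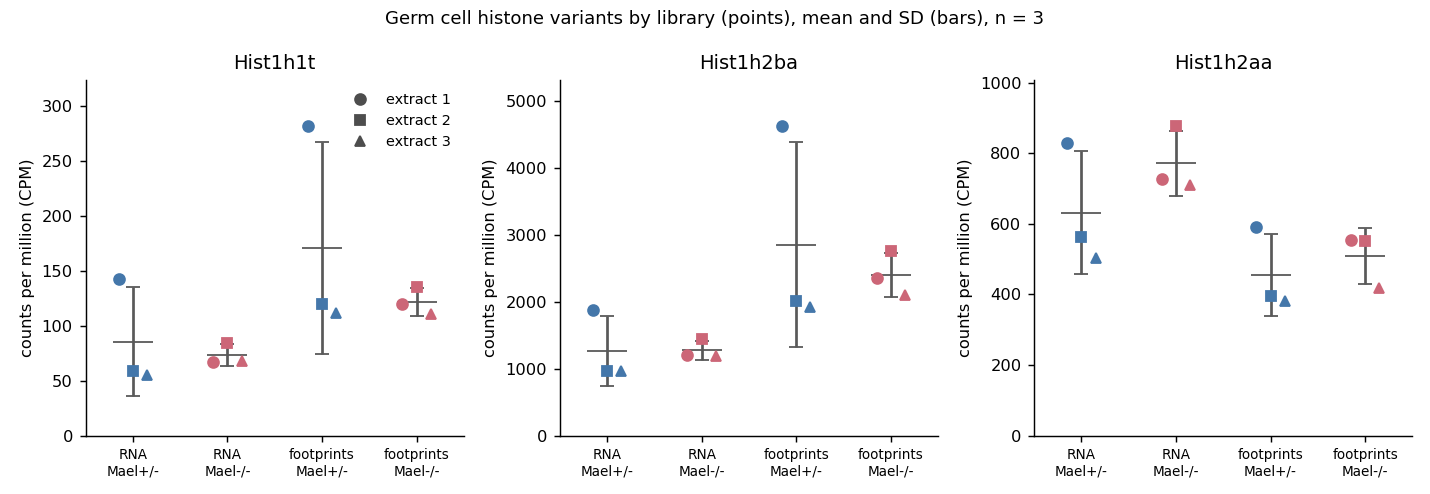
CPM of *Hist1h1t*, *Hist1h2ba* and *Hist1h2aa* in every library (vertical axis, from 0) by genotype and assay, with circles, squares and triangles for extracts 1, 2 and 3 and bars for the mean and SD (n = 3). The circle of *Mael*+/- lies far above the other 2 *Mael*+/- extracts in each panel, at 4622 CPM for *Hist1h2ba* footprints.

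As counted, *Hist1h2ba* and *Hist1h2aa* formed a sizeable part of their classes and *Hist1h1t* a small part, and these parts moved with the extract. The shares depend on which reads could be placed. *Hist1h2ba* is 55.5% unique and *Hist1h2aa* 87.8%, against class medians of 13.5% for H2B and 11.1% for H2A. Members of both classes that had no count add nothing to the class sums. *Hist1h2ba* gave 52.2%, 33.0% and 34.7% of all H2B counts (as CPM) in *Mael*+/- RNA and 36.1%, 39.2% and 35.99% in *Mael*-/- RNA. In footprints it gave 73.1%, 55.2% and 54.0% and then 56.3%, 59.0% and 57.0%. *Hist1h2aa* gave 27.3% to 37.9% of H2A counts in RNA and 17.5% to 25.7% in footprints. *Hist1h1t* gave 1.76% to 4.14% of H1 counts in RNA and 2.79% to 6.48% in footprints. Beside the high share in extract 1 stands its pachytene marker level, a median of 1.61 above the mean of the RNA libraries on the log2 scale. Its part in the histone values was not tested.

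The gene patterns most like the variants over the 6 RNA libraries are given as a description, and all of them contain the high extract. Among 13809 genes with at least 20 counts on average, Pearson's r of log2 CPM with *Hist1h2ba* was highest for *Dtwd2*, *Smg9*, *Il16*, *Rimbp3* and *Tmem209* (0.988 to 0.996). For *Hist1h1t* the highest were *Zufsp*, *Bcl7b*, *Rpp30*, *Ttc29* and *Tfb1m* (0.989 to 0.996), and for *Hist1h2aa* they were *Spryd7*, *Evi5l*, *Il18*, *Gpr160* and *Aox4* (0.985 to 0.995). *Hist1h1t* and *Hist1h2ba* had r = 0.974 with each other. With *Hist1h2aa* they had r = 0.755 and 0.868.

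Comparing *Mael*-/- with *Mael*+/- RNA asks whether histone mRNA levels differ in piRNA-deficient testes. No member was called, but nearly all had slightly more RNA in *Mael*-/-. Summed over the 65 other members, RNA was at 9688, 9729 and 9052 CPM in *Mael*+/- and at 10749, 11875 and 10683 CPM in *Mael*-/-, which did not overlap. H4 genes summed to 2888, 2491 and 2412 CPM and to 3136, 3627.5 and 3043 CPM, again without overlap. The H1 and H2B sums without the variants did not overlap either. Those of H2A (1344 to 1442 against 1428 to 1648 CPM) and H3 (418 to 535 against 518 to 606 CPM) did.

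**Figure D2:**
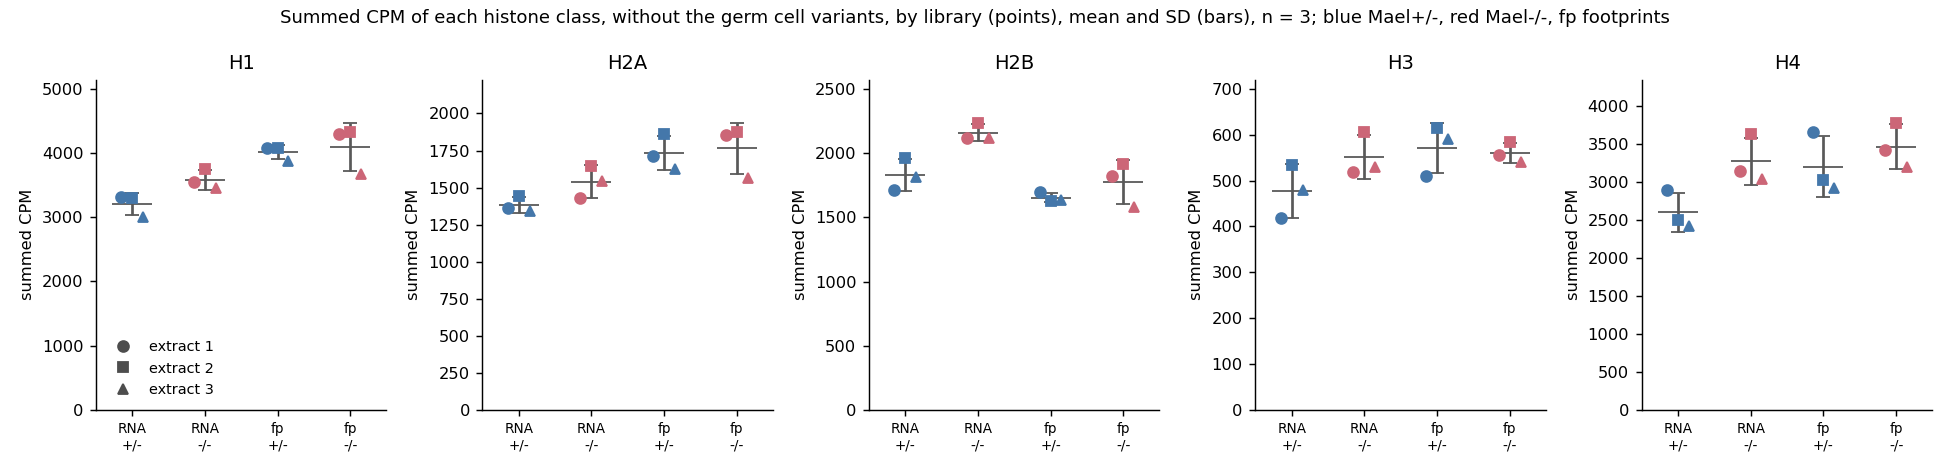
Summed CPM of each histone class without the germ cell variants (vertical axes, from 0) by genotype and assay, with each library as a point (circle, square and triangle for extracts 1, 2 and 3) and bars for the mean and SD (n = 3). In RNA the *Mael*-/- libraries lie above the *Mael*+/- libraries for H1, H2B and H4, and in footprints the genotypes overlap in every class.

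Gene by gene, the differences were small and mostly of 1 sign. Of 59 members, 57 were higher in *Mael*-/- RNA (47.7% of all 14647 genes tested), and the median log2 difference was 0.20 (−0.01 over all genes). By class the median was 0.34 for H4, with 12 of 12 higher, 0.20 for H2A (14 of 14), 0.19 for H3 (10 of 10), 0.14 for H2B (16 of 17) and 0.11 for H1 (5 of 6). Members share sequence and may share reads, so they are not independent of each other. By edgeR's quasi-likelihood test with Benjamini-Hochberg adjustment, 0 of 59 were called at an adjusted p under 0.05 (0.116% of all genes were). An unadjusted p under 0.05 was reached by 18 members, all higher, against 5.39% of all genes in either direction and 2.12% upward. The 2 lower members were *Hist1h1t* and the H2B gene *Hist2h2be*, the latter at 6.96 and 6.36 CPM on average. All 3 *Mael*-/- libraries lay above all 3 *Mael*+/- libraries for 17 members (4.77% of all genes) and below them for 0 (5.67%).

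The member with the smallest p was *Hist1h2bm*, a core H2B gene. Its RNA was at 401, 397 and 382 CPM in *Mael*+/- and at 506, 528 and 503 CPM in *Mael*-/-. The groups lay well apart, with a log2 difference of 0.38 ± 0.08 (SE, adjusted p = 0.272 in edgeR). *Hist1h4a*, an H4 gene, was at 127, 132 and 134 CPM and at 167, 174 and 161 CPM (0.35 ± 0.08, adjusted p = 0.421). *Hist1h4j* was at 416, 405 and 394 CPM and at 539, 552 and 481 CPM (0.37 ± 0.09, adjusted p = 0.436). DESeq2 called these 3 members and no other (0.376% of all genes), with adjusted p of 0.00237, 0.0299 and 0.0282. *Hist1h4a* is named here for that call, after its values were seen. *Hist1h1a*, the most abundant, was at 2284, 2176 and 1973 CPM and at 2399, 2511 and 2392 CPM (0.18 ± 0.09, adjusted p = 0.939).

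The other abundant members ranged from overlapping to clearly separated groups. *Hist1h4c* was at 933, 701 and 688 CPM in *Mael*+/- RNA and at 912, 1110.0 and 901 CPM in *Mael*-/- RNA (0.33 ± 0.13). *Hist1h4d* was at 388, 341 and 316 CPM and at 393, 511 and 411 CPM, with little room between the groups. Among H2B genes, *Hist1h2bb* went from 275, 315 and 295 CPM to 344, 367 and 344 CPM and *Hist3h2ba* from 229.9, 241 and 223 CPM to 269.7, 276 and 265 CPM, both without overlap and neither called. The H1 genes *Hist1h1c* (599 ± 21.3 and 657 ± 44.2 CPM, SD, n = 3) and *Hist1h1e* (302 ± 22.1 and 319 ± 34.2 CPM), overlapped between genotypes or nearly did. The H2A gene *Hist3h2a* overlapped as well, at 791, 791 and 714 CPM and at 788, 864 and 826 CPM. Low separation was also seen for the H3 genes *Hist1h3a* (116 ± 19.2 and 139 ± 9.04 CPM), *Hist1h3f* (78.5 ± 13.3 and 92.8 ± 13.1 CPM) and *Hist1h3e* (66.7 ± 10.3 and 75.5 ± 9.54 CPM). The H2A genes *Hist1h2ak* (196 ± 13.2 and 226 ± 15.7 CPM) and *Hist1h2ai* (144 ± 10.5 and 171 ± 16.9 CPM) lay just apart.

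Errors were wider for the germ cell variants. The log2 differences in RNA were −0.22 ± 0.31 (SE) for *Hist1h1t*, 0.01 ± 0.23 for *Hist1h2ba* and 0.29 ± 0.17 for *Hist1h2aa*, none called. Without *Mael*+/- extract 1 the values were 0.36, 0.40 and 0.53. So the sign for *Hist1h1t* turned on that library. Without it, 50 of 59 members were higher (48.7% of all genes) and the median was 0.17. Without *Mael*-/- RNA library 2, which had the highest summed histone RNA, 45 of 59 were higher (47.9% of all genes), the median was 0.16, and 5 members rather than 18 had an unadjusted p under 0.05 (3.42% of all genes). The 95% interval of the RNA difference lay within 2-fold in either direction for 57 of 59 members.

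In footprints the members lay on both sides of 0. Of 59 members, 30 were higher in *Mael*-/- (47.5% of 13500 genes tested), with a median log2 difference of 0.00 (−0.01 over all genes) and 0 called by edgeR or DESeq2 (0.0593% of all genes by edgeR and 0.156% by DESeq2). One member, *Hist1h2bm*, had an unadjusted p under 0.05 (4.33% of all genes did), at 475, 400.2 and 422 CPM in *Mael*+/- and at 514, 575 and 467 CPM in *Mael*-/- (0.26 ± 0.11, SE). Its groups overlapped. Without *Mael*+/- footprint library 1, 10 members had an unadjusted p under 0.05 (6.15% of all genes), 7 higher and 3 lower, and 0 were called. *Hist1h4a* and *Hist1h4j* footprints were higher in every *Mael*-/- library, 2 of 59 members (4.19% of all genes). Those of *Hist1h2an*, *Hist2h2ab* and *Hist2h3b* were lower in every library, 3 of 59 (4.87%). Class medians ran from −0.05 for H1 to 0.10 for H4. The variants gave −0.49 ± 0.29 for *Hist1h1t*, −0.25 ± 0.28 for *Hist1h2ba* and 0.16 ± 0.17 for *Hist1h2aa*, and without *Mael*+/- extract 1 these were 0.08, 0.29 and 0.39. The 95% interval was within 2-fold for 58 of 59 members.

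A change of translation efficiency is a change of footprints beyond that of RNA, tested as the interaction of genotype and assay. Of 59 members, 58 had a lower value in *Mael*-/- (49.0% of 14386 genes did), with a median of −0.19 (0.00 over all genes). The exception was the H2B gene *Hist1h2bf* (0.07 ± 0.27, SE). No member was called by edgeR or DESeq2, nor was any other gene (0%). With edgeR 1 member, the H2B gene *Hist3h2ba*, had an unadjusted p under 0.05 (−0.27 ± 0.12, against 0.542% of all genes). RNA and footprints of an extract come from the same lysate, and with the extract as a block 18 members had an unadjusted p under 0.05 (2.18% of all genes), all lower, and still 0 were called. The difference was −0.27 ± 0.50 for *Hist1h1t*, −0.26 ± 0.43 for *Hist1h2ba* and −0.13 ± 0.28 for *Hist1h2aa*. Leaving out both libraries of *Mael*+/- extract 1 gave 53 of 59 members lower (48.0% of all genes) and a median of −0.17. Since RNA enters both comparisons, this pattern and the RNA shift rest in part on the same libraries.

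**Figure D3:**
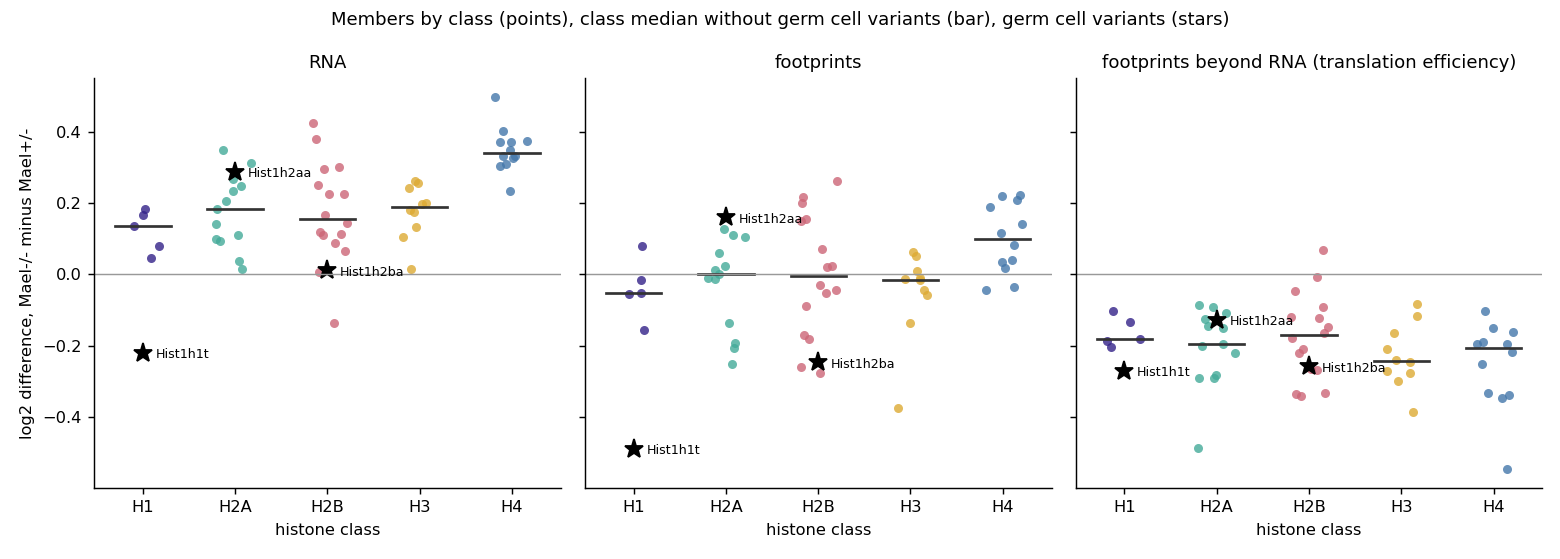
Log2 difference between *Mael*-/- and *Mael*+/- (vertical axis) of each member with counts by histone class, in RNA, footprints and footprints beyond RNA, with bars for the class median without the variants and stars for the 3 germ cell variants. RNA points lie mostly above 0, footprint points on both sides, while for footprints beyond RNA 58 of 59 points have values under 0, none of them called.

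Within a genotype, footprints were set against RNA to rank members by ribosome load relative to mRNA. The members spread widely, and *Hist1h4n* was highest and *Hist1h2bc* lowest in both genotypes. In *Mael*+/- 36 of 59 members were called (47.9% of 14264 genes), 23 higher in footprints (21.8%) and 13 lower (26.1%). In *Mael*-/- 44 were called (67.4% of 14025 genes), 23 higher (32.6%) and 21 lower (34.8%). With the extract as a block 49 members (69.2% of all genes) and 44 members (70.7%) were called. The median log2 difference was 0.23 and 0.05 (−0.02 and −0.01 over all genes). The *Mael*-/- median was 0.01 without RNA library 1 or without footprint library 2, 0.03 without footprint library 1, 0.11 without footprint library 3 and 0.13 without RNA library 2. A value of 0 means the ratio of the average gene. RNA was counted over the whole mRNA and footprints over coding sequence alone, so genes with long untranslated regions stand lower.

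As counted, H1 genes were all on the high side, and H2B genes held the lowest values. The classes also differ in unique sequence, with a median of 83.0% for H1 and 13.5% for H2B. Its part in this contrast was not tested. All 6 H1 genes had positive differences in both genotypes (48.7% of all genes in *Mael*+/- and 49.3% in *Mael*-/-). Of them, 5 were called higher in *Mael*+/- (21.8% of all genes) and 6 in *Mael*-/- (32.6%). The medians of the 6 were 0.55 and 0.37. Of 17 H2B genes, 7 were called lower in *Mael*+/- (26.1% of all genes) and 9 in *Mael*-/- (34.8%). At 2-fold or more, 7 members were called higher in *Mael*+/- (7.11% of all genes) and 4 lower (10.8%), and all 4 were H2B genes. In *Mael*-/- these were 5 (8.01%) and 7 (11.3%), and 5 of the 7 were H2B genes.

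Of the germ cell variants, 2 lay high and 1 low. *Hist1h2ba* had a difference of 1.24 ± 0.37 (SE, adjusted p = 0.0217 in edgeR) in *Mael*+/- and 0.999 ± 0.10 (adjusted p = 8.68e-08) in *Mael*-/-. As counted, it was the highest of the H2B genes in both genotypes. Per kilobase the H2B gene *Hist2h2be* was higher (2.18 against 1.22 on the log2 scale over all libraries), and per unique window of the coding sequence *Hist1h2bm* and *Hist1h2bj* were (both 1.25, against 1.12). *Hist1h1t* had 1.07 ± 0.43 (adjusted p = 0.0698, and 2.46e-14 with the extract as a block) and 0.82 ± 0.10 (adjusted p = 4.78e-07). *Hist1h2aa* had −0.40 ± 0.22 (adjusted p = 0.161, and 1.83e-05 with the block) and −0.51 ± 0.11 (adjusted p = 0.000303). So the paired genes *Hist1h2aa* and *Hist1h2ba* lay on opposite sides. The *Mael*+/- call of *Hist1h2ba* was lost without RNA library 2 (adjusted p = 0.0695) or 3 (0.0714). Without both libraries of *Mael*+/- extract 1, chosen after seeing the data, all 3 were called (1.10, 1.11 and −0.38 for *Hist1h1t*, *Hist1h2ba* and *Hist1h2aa*), among 38 members (47.7% of all genes).

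The lowest members were *Hist1h2bc*, *Hist1h2bn*, *Hist1h2bk* and *Hist1h2be*, all genes of the core histone H2B. *Hist1h2bc* was at 68.2, 86.5 and 90.3 CPM in *Mael*+/- RNA and at 15.9, 16.8 and 19.7 CPM in footprints. Footprints lay below RNA in every extract, by −2.14 ± 0.16 (SE, adjusted p = 9.46e-06), and by −2.27 ± 0.10 in *Mael*-/-. *Hist1h2bn* was at 125, 163 and 137 CPM against 30.1, 34.2 and 33.7 CPM (−2.04 ± 0.13, and −2.19 ± 0.09 in *Mael*-/-). *Hist1h2bk* was at 93.4, 126 and 113 CPM against 37.2, 38.3 and 38.7 CPM (−1.46 ± 0.13). *Hist1h2be* was at 82.7, 80.7 and 72.6 CPM against 39.8, 32.4 and 27.2 CPM (−1.17 ± 0.14). None of these groups overlapped. After them came the H3 genes *Hist1h3e* in *Mael*+/- (−0.98 ± 0.15) and *Hist2h3b* in *Mael*-/- (−1.32 ± 0.20), the latter at 3.11 ± 0.65 CPM in footprints (SD, n = 3). The unique share of the coding sequence was 0% for *Hist1h2bc*, 11.9% for *Hist1h2bn* and *Hist1h2be* and 4.55% for *Hist1h2bk*. For *Hist1h2bc* only 58 windows of 30 bases that reach outside the coding sequence are unique, so its value is uncertain. RefSeq gives *Hist1h2bc* and *Hist1h2be* longer spliced transcripts, of up to 728 and 2506 bases, beside those of 469 and 445 bases.

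At the high end stood *Hist1h4n*, *Hist1h3h*, *Hist1h2ae*, *Hist1h1b* and *Hist2h4*. *Hist1h4n*, an H4 gene, was at 3.86, 3.04 and 2.24 CPM in *Mael*+/- RNA and at 49.9, 22.1 and 42.6 CPM in footprints (3.73 ± 0.32, SE, adjusted p = 2.45e-05, and 3.21 ± 0.27 in *Mael*-/-). Its coding sequence has no unique window of 30 bases, as printed above for its start, and only 18 windows that touch the coding sequence from outside are unique. This value is therefore uncertain. *Hist1h3h*, of H3, was at 33.5, 53.5 and 41.8 CPM against 123, 173 and 124 CPM (1.78 ± 0.20), and *Hist1h2ae*, of H2A, at 4.73, 9.90 and 8.64 CPM against 20.6, 25.4 and 26.8 CPM (1.72 ± 0.26). Both have few unique windows, 5.76% and 11.5%. The last 2 are mostly unique, at 95.2% for *Hist1h1b* and 86.2% for *Hist2h4*. *Hist1h1b*, a linker histone gene, was at 27.1, 44.6 and 41.7 CPM against 86.6, 122 and 120.2 CPM (1.61 ± 0.21, and 1.42 ± 0.10 in *Mael*-/-). *Hist2h4* was at 22.1, 21.04 and 22.2 CPM against 47.8, 70.9 and 60.1 CPM (1.53 ± 0.16, and 1.204 ± 0.11 in *Mael*-/-).

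**Figure D4:**
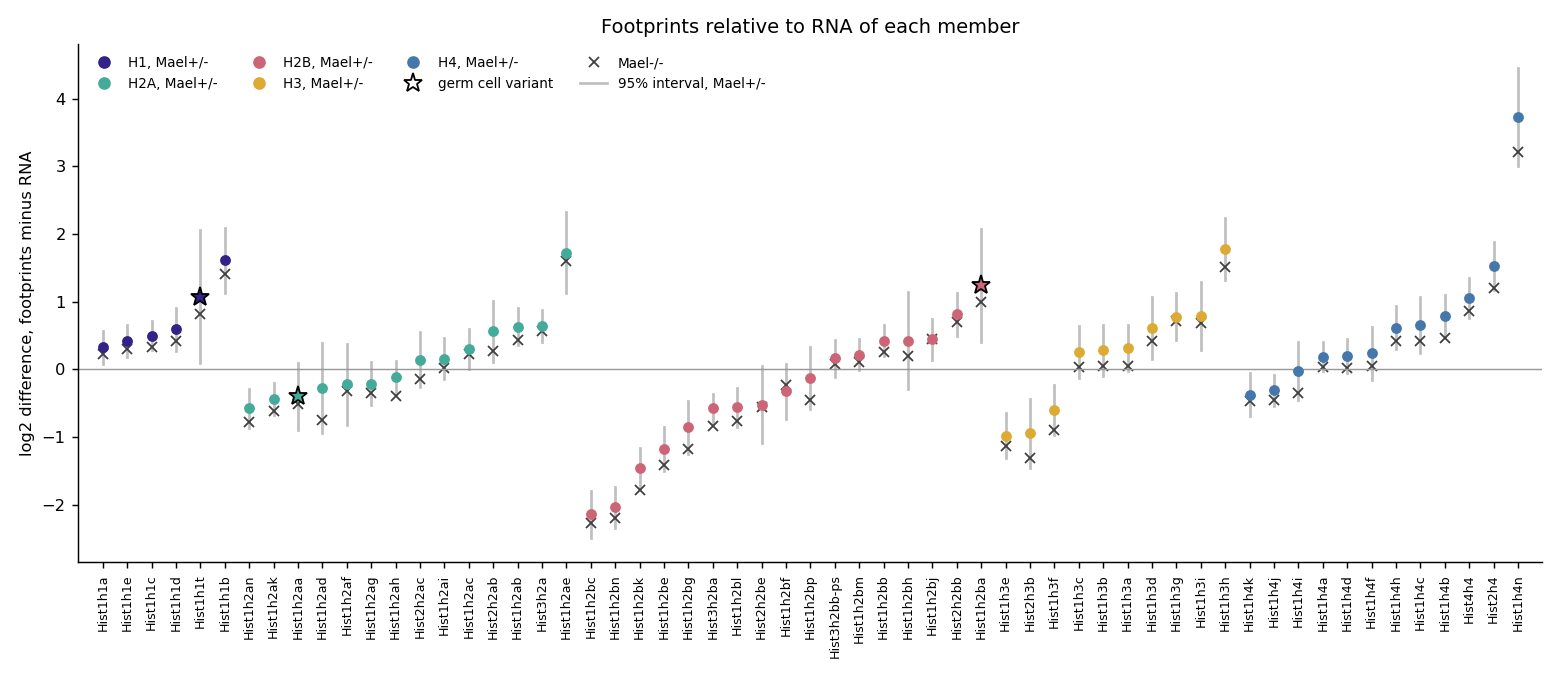
Log2 difference between footprints and RNA (vertical axis) of the 59 members with counts, ordered within each class, with dots and 95% intervals for *Mael*+/-, crosses for *Mael*-/- and stars for the germ cell variants. *Hist1h4n* lies highest at 3.73 and *Hist1h2bc* lowest at −2.14, and the *Mael*-/- crosses lie close to the *Mael*+/- values.

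The ranking was set against unique sequence. Over 58 members with counts and a coding sequence, the *Mael*+/- difference and the unique share of the coding sequence had Pearson's r = 0.299 and Spearman's rho = 0.385, and 0.430 and 0.454 without *Hist1h4n*. The points share libraries and sequence, and genes are not replicates. Of the 14 members at 50% unique or more, 12 had positive values (median 0.62, from −0.52 to 1.61). The 44 members below 50% had a median of 0.15 and ran from −2.14 to 3.73. When footprints were divided by unique windows of 30 bases and RNA by unique windows of 75 bases of the coding sequence, in place of the whole lengths, Pearson's r across the 54 members with such windows was 0.035, against 0.446 per whole length across the same 54. Their values spanned −1.71 to 2.90, against −1.88 to 2.18 per whole length. When windows that reach outside the coding sequence were included, all 58 had a value, from −1.48 to 4.19, with r = 0.072, against −2.01 to 3.74 and r = 0.35 per whole length. On the scale of the 54 members *Hist1h2ba* moved from 1.22 to 1.12, *Hist1h1t* from 1.10 to 0.77 and *Hist1h2aa* from −0.25 to −0.55. Of the lowest members, *Hist1h2be* moved from −1.15 to −0.17, *Hist1h2bn* from −1.88 to −1.19 and *Hist1h2bk* from −1.32 to −1.71. Of the highest, *Hist1h3h* moved from 1.81 to 1.56, *Hist1h2ae* from 2.09 to 2.90, *Hist1h1b* from 1.68 to 1.40 and *Hist2h4* from 1.57 to 1.23. *Hist1h2bc* and *Hist1h4n* have no value on that scale. *Hist1h3e*, at −0.98 as counted, was at 0.00 per whole length and 0.23 per unique window. How reads with several matches entered the counts was not tested.

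**Figure D5:**
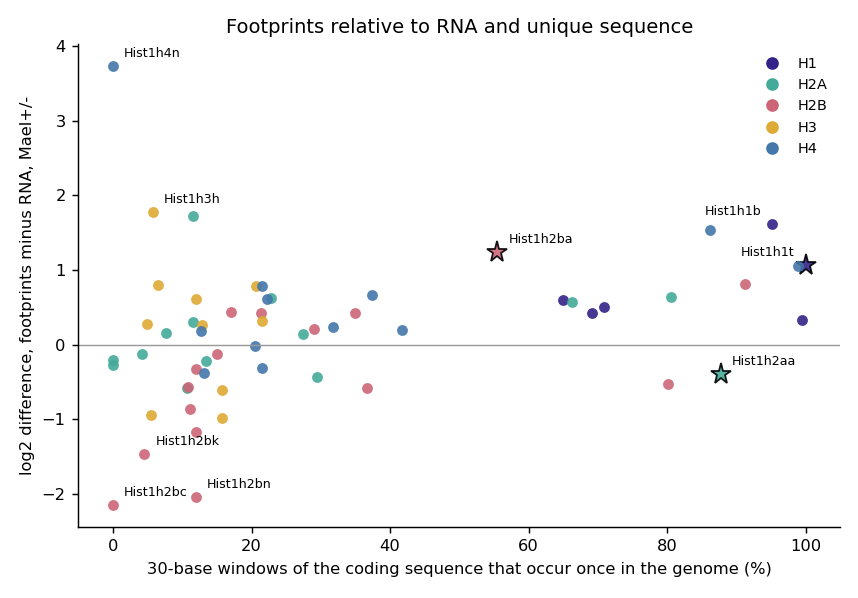
Log2 difference between footprints and RNA in *Mael*+/- (vertical axis) against the percentage of 30-base windows of the coding sequence found once in the genome (horizontal axis) for 58 members, coloured by class, with stars for the germ cell variants. The widest spread is at the left, from −2.14 to 3.73, and 12 of the 14 members at 50% or more lie above 0.

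The genotype differences were also read in the members that can be told apart. Among the 11 other members at 50% unique or more, 10 were higher in *Mael*-/- RNA (median 0.13, against 47.7% of all genes higher). In footprints 5 were higher (median −0.01, against 47.5%). All 11 were lower in translation efficiency (median −0.18, against 49.0% of all genes lower). None was called, and the RNA and translation efficiency values rest in part on the same libraries.

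Genes that act with histone mRNAs or share their timing gave no call between genotypes. Calls were rare over all genes, at 0.116% in RNA and 0.0593% in footprints, so lists of this size tell little by it. Of all genes tested, 47.7% were higher in *Mael*-/- RNA. Of 20 genes of histone mRNA processing and regulation, which include *Slbp*, 11 were higher in *Mael*-/- RNA, with a median log2 difference of 0.02. *Upf1*, which acts in histone mRNA decay, was at 214 ± 14.6 and 236 ± 18.6 CPM (SD, n = 3) and *Casp8ap2*, a factor of histone gene transcription and processing, at 180.1 ± 19.4 and 184 ± 16.2 CPM. *Cdk2*, the kinase that with cyclin E starts S phase, was at 182 ± 5.32 and 179 ± 8.23 CPM. Of 16 S-phase genes, 11 were higher (median 0.05), among them *Mcm6* (236 ± 22.8 and 250.5 ± 7.27 CPM), *Mcm5* (215 ± 18.2 and 239 ± 25.6 CPM) and *Mcm2* (209 ± 30.7 and 215 ± 7.94 CPM), which encode subunits of the replicative helicase. All 12 histone chaperone genes tested were lower (median −0.06), with *Nasp*, which binds H3 and H4, at 292 ± 38.5 and 291 ± 30.9 CPM, *Nap1l4* at 273 ± 12.8 and 258 ± 16.6 CPM and *Supt16* at 265 ± 39.1 and 242 ± 7.51 CPM.

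Histone variants with other symbols were given for comparison. Most are made outside S phase from polyadenylated mRNA, but whether that holds for *H2afx* was not examined here. Of 12 tested, 4 were higher in *Mael*-/- RNA (median −0.05). *H2afx*, whose product marks DNA breaks and the sex body, was at 931 ± 81.0 and 1247 ± 81.1 CPM (0.42, adjusted p = 0.421), *H3f3b* at 728 ± 50.2 and 630.1 ± 83.1 CPM and *H1f0* at 188 ± 18.6 and 160.4 ± 20.2 CPM. In *Mael*+/- their footprints relative to RNA were called lower for 6 of 12 (26.1% of all genes) and higher for 2 (21.8%). The first group included *H3f3b* (−0.81) and *H1f0* (−0.65), and the second *H2afx* (0.41). Genes of postmeiotic chromatin, which package DNA once histones are removed, were at or near 0. *Tnp2*, *Prm1* and *Prm3* had no count in any library, and the list summed to 0.362 to 0.942 CPM over all RNA libraries. In footprints the chaperones, S-phase and processing genes had medians of −0.04, 0.03 and 0.03 between genotypes, with 0 called (0.0593% of all genes).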

How the data were processed

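The deposited table holds raw counts per gene, which the authors made with FASTX-Toolkit, Bowtie 1.2.2 (removal of ribosomal reads), STAR 2.6.0c on mm10 and featureCounts of Subread 1.6.4, with footprints of 28 to 34 nt counted within coding sequence and RNA along the whole mRNA. The annotation and the use of strand are not given in the sources used here. Deposited tables of the authors' DESeq2 1.24.0 fold changes and p-values were not used. Each group held 3 libraries.

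The members and lists were chosen with earlier results of these data known. Named members were the variants, the 3 members of each class with the most RNA, the 5 largest called differences each way without overlap between groups, and members without counts. For lists, up to 3 genes with the most RNA were named. CPM are counts per 1000000 gene counts after TMM scaling within an assay. Each test ran over the whole table (edgeR 4.0.16 under R 4.3.3, quasi-likelihood, TMM, default filter, Benjamini-Hochberg, adjusted p under 0.05), after a test on simulated counts. DESeq2 1.42.0, other scaling, no filter, blocks and left-out libraries were alternatives. Deviations of RNA and footprints of the same extract correlated (r = 0.244 to 0.787 over 12265 genes, all above 0.1), so extracts pair them. Coordinates and coding sequences are from GENCODE on GRCm38, transcripts and promoters from RefSeq (67 members matched). Protein identity was planned, but coding nucleotide identity was used. Windows that touch a coding sequence were added after seeing the data.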

Additional observations from a re-analysis of the deposited data

How the results depend on the processing

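The number of called members kept within 1.5 times under all alternatives of the 5 tests, except that DESeq2 called 3 members in RNA where edgeR called 0. Leaving out 1 library gave 0 called members throughout in RNA, footprints and translation efficiency, 29 to 36 for footprints against RNA in *Mael*+/- and 40 to 44 in *Mael*-/-. Medians over the members ran from 0.16 to 0.26 in RNA, from −0.04 to 0.09 in footprints from −0.27 to −0.13 in translation efficiency, and from 0.20 to 0.25 and 0.01 to 0.13 for footprints against RNA in *Mael*+/- and *Mael*-/-. The variants changed sign when 1 library was left out: *Hist1h1t* ran from −0.46 to 0.36 in RNA, −0.72 to 0.078 in footprints and −0.85 to 0.30 in translation efficiency, *Hist1h2ba* from −0.15 to 0.40, −0.46 to 0.29 and −0.65 to 0.28, and *Hist1h2aa* in translation efficiency from −0.37 to 0.11. The cause was not tested.

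With the extract as a block, 0 members were called in translation efficiency. For footprints against RNA this block called 49 in *Mael*+/- (69.2% of all genes) and 44 in *Mael*-/- (70.7%). With the replicate number as a block, 0 members were called in RNA and in footprints. The labels do not say whether extracts with the same replicate number belong together across genotypes. For replicates 1, 2 and 3, deviations correlated between genotypes at 0.27, 0.0058 and 0.18 in RNA and at 0.079, 0.24 and 0.057 in footprints. Some of these values lie above the limit of 0.1 and others below it. The main tests between genotypes used no such pairing. Depth limits members with few reads, such as *Hist2h3b*, with 20 to 47 footprint counts per library.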
